A study of Homo sapiens with 9 samples.

Results

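Gene fitness under JAK2 inhibition was read from 5 guide libraries of a genome-wide CRISPR-Cas9 knockout screen in HEL cells, a human erythroleukemia line with mutated JAK2. All cells were HEL-Cas9 cells, which carry the nuclease Cas9, were grown with puromycin and blasticidin, and held the Brunello library, a lentiviral pool that inactivates 1 gene per cell with about 4 different guides per gene. The libraries compared were 1 of genomic DNA at day 0, before treatment, and 4 at day 12 under 200 nM ruxolitinib (RUX), an inhibitor of the kinases JAK1 and JAK2. A further 4 libraries at day 12 under DMSO, the vehicle, complete the 9 libraries of the screen and are given beside the RUX values. All 19114 genes of the library were taken, and 19112 of them could be scored. The labels number the 4 RUX libraries R1 to R4 without saying whether they came from separate cultures. The p-values therefore measure the spread between libraries within a group, pooled over RUX and DMSO.

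In a pooled knockout screen, cells that lose a gene they need divide less or die, and the guides of that gene become rarer. Guides become more frequent when the lost gene holds growth back. JAK2 relays the signal of erythropoietin and thrombopoietin receptors to STAT5 and to the RAS-MAPK and PI3K pathways. In JAK2-mutated cells it is active without a ligand. Ruxolitinib occupies the ATP pocket of the kinase, so a screen in its presence asks which genes the cells still need when this signal is damped, and which losses let them grow better.

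Gene scores were computed per library as the mean over the guides of a gene of the natural log of the guide level at day 12 over that at day 0, with each library scaled on the non-targeting guides and 5 added to both levels. A score of 0 therefore means that a gene kept pace with guides that have no target. Genes with a score below −0.5 are counted. The study puts this cut on another quantity, so the count is not one of its dependencies. A gene is called lower or higher where limma gave an adjusted p under 0.05 over all genes. Reads on guides numbered 21983632 at day 0 and between 19631338 and 24526993 in the RUX libraries, and the median guide had 235 reads at day 0. In 247 pseudo-genes of 4 control guides each, RUX scores ran from −0.22 to 0.30 with a median of −0.004. None of them lay beyond −0.5 or 0.5, which allows a share of up to 1.21% by counting error alone. DMSO replicate 3 stood apart by the spread of its control guides (SD 0.459), which lay between 0.264 and 0.302 in every other day 12 library.

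Scores below −0.5 were far more frequent than scores above 0.5. Of the 19112 genes, 891 had a mean score below −0.5 (4.66% of genes), 129 lay below −1, and 9 lay above 0.5 (0.0471% of genes). limma called 307 genes lower (1.61% of genes) and 0 higher (0% of genes). At an unadjusted p under 0.05, 1830 genes were lower and 117 higher, and edgeR and DESeq2 on the recovered reads called 1 and 3 genes higher. A total of 7562 genes lay below day 0 in all 4 RUX libraries (39.6% of genes) and 1757 above it (9.19% of genes). In the pseudo-genes these shares were 18.6% and 17.0%. Of 374 olfactory receptor genes, a background list, 120 lay below day 0 in all 4 RUX libraries and 40 above it. The counts also moved with the scaling. Scaled over all guides and not over control guides, 607 genes lay below −0.5 and 42 above 0.5, with 147 called lower and 2 higher. Every guide lay below day 0 in every RUX library for 294 genes (1.54% of genes), 123 of which were called lower, and above day 0 for 14 genes (0.0733% of genes).

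**Figure D1:**
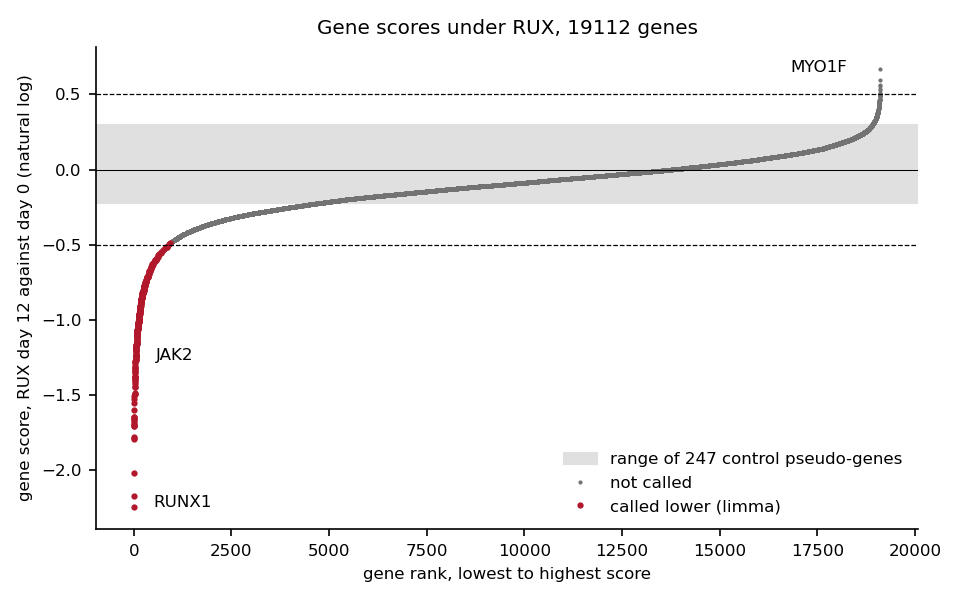
Mean RUX score of each gene (natural log, vertical axis) against its rank from lowest to highest (horizontal axis). Red points are the 307 genes called lower by limma, the grey band is the range of the 247 control pseudo-genes (−0.22 to 0.30), and dashed lines mark −0.5 and 0.5. The lower tail reaches −2.24 at RUNX1 and the upper tail 0.67 at MYO1F.

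The number of called genes depended on how the variance was modelled. Day 0 is a single library, whose spread was taken from the other groups. With the variance trend run over the mean score and not over the mean guide level, an alternative chosen after seeing the data, limma called 102 genes lower, 101 of them among the 307. Over 24 alternative settings, 36 of the 307 genes stayed called in each one, and 254 in at least 12. Genes said below to hold in every setting belong to these 36.

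The lowest score under RUX belonged to RUNX1, a transcription factor that blood cell development requires. RUNX1 (chromosome 21, 34787801 to 36004667, GRCh38) stood at −1.92, −2.29, −2.33 and −2.44 in the 4 RUX libraries, a mean of −2.24 ± 0.23 (SD, n = 4), which left 10.6% of its day 0 guide level (adjusted p = 3.0e-06, limma). Its DMSO libraries lay between −1.69 and −2.06, so the groups overlapped. All 4 RUNX1 guides fell, with mean scores of −3.46, −3.14, −1.31 and −1.07.

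Many of the genes with the next lowest scores serve processes that all dividing cells use. RPL8, a protein of the large ribosomal subunit, had −2.02, −2.37, −2.20 and −1.46 in the RUX libraries (adjusted p = 1.1e-04, limma). PRPF8, the central scaffold of the spliceosome, had −1.79 ± 0.34, and HSPE1, the co-chaperonin of the mitochondrial matrix, −1.78 ± 0.17 (SD, n = 4 each). SNRPD3, a core protein of spliceosomal snRNPs, stood at −1.70 and RPP21, a subunit of ribonuclease P, at −1.70. RPP21 had the smallest adjusted p of all genes, 1.8e-07 in limma, although 1 of its 4 guides did not move (−0.08, against −3.26, −1.95 and −1.52 for the others). BUB3, of the spindle checkpoint, lay between −1.86 and −1.61 in the 4 libraries, and TERF2, which protects telomere ends, between −1.75 and −1.51. TMED10, a cargo receptor of the early secretory pathway, and DAD1, a subunit of the oligosaccharyltransferase, followed at −1.65 and −1.64. RUNX1, RPL8, RPP21, BUB3 and TERF2 held in every setting, while the PRPF8 call was lost when the median over guides was taken or the farthest guide left out. The HSPE1 call was lost in DESeq2, and those of SNRPD3 and TMED10 without the farthest guide. That of DAD1 was lost with the median over guides and with a day 0 level of at least 100.

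**Figure D2:**
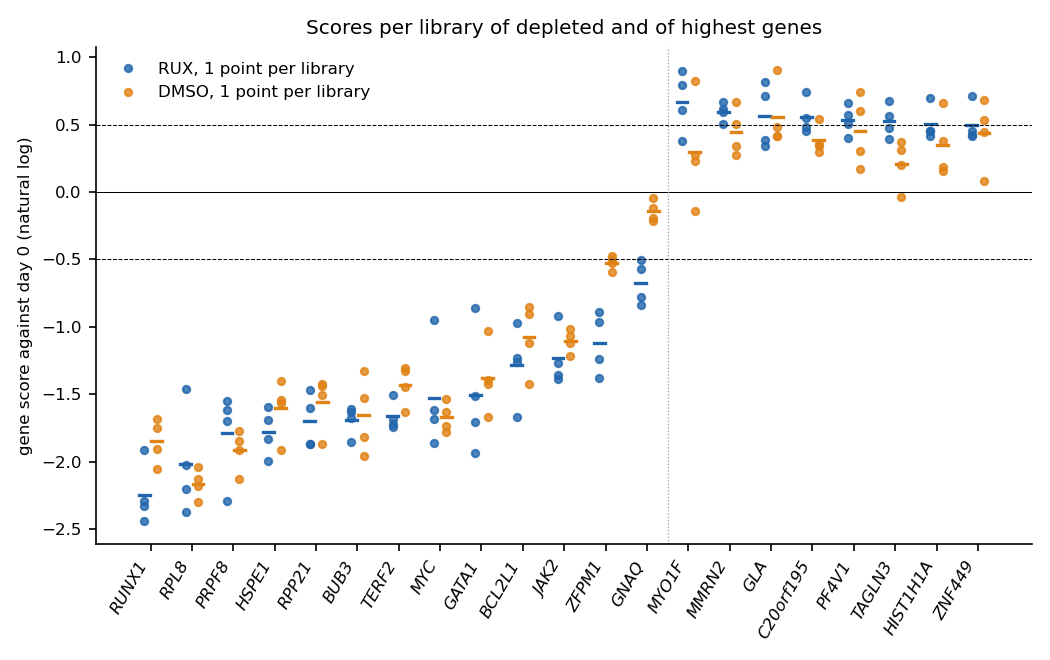
Scores against day 0 (natural log, vertical axis) in each of the 4 RUX libraries (blue) and 4 DMSO libraries (orange) for 13 depleted genes and the 8 highest named genes, with group means as short bars. RUX and DMSO points overlap for all genes but GNAQ, ZFPM1 and TAGLN3, where all RUX points lie on 1 side of all DMSO points.

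Among the machineries common to all cells, the cytosolic ribosome and the chaperonins were the most depleted. Over all genes 1.61% were called lower and 4.66% lay below −0.5, the background for the counts in these and the following lists. Of 79 cytosolic ribosome genes, 28 were called lower and 52 lay below −0.5, with a median score of −0.64 against −0.10 over all genes. RPL27A stood at −1.68 and RPL23A at −1.38, and 6 of the 28 genes held in every setting. Of 10 chaperonin genes, which fold newly made proteins, 5 were called lower (median −0.70), among them CCT6A at −1.18, CCT4 at −1.04 and HSPD1, the partner of HSPE1, at −0.85. None of these 5 held in every setting. Of 31 proteasome genes, 9 were called lower (median −0.51), with −1.66 for the catalytic subunit PSMB5. The core subunits PSMA6 and PSMB4 stood at −1.60 and −1.32, and PSMD6 of the regulatory particle at −1.09.

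Splicing and translation beyond the ribosome came next. Of 56 spliceosome genes 11 were called lower (median −0.41), among them SF3B5 at −1.31 and PHF5A at −1.08, both of the SF3b complex. Of 20 aminoacyl-tRNA synthetases, which charge tRNAs, 8 lay below −0.5 and 2 were called, VARS at −0.77 and CARS at −0.63 (median −0.46). RNA polymerase II and its general factors had 2 of 25 called (median −0.30), the subunits POLR2L at −1.38 and POLR2I at −0.99. The VARS and POLR2I calls were lost in most of the 24 settings, while POLR2L held in every setting.

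Lists of the cell cycle had from 5% to 16.7% of genes called lower, against 1.61% of all genes. Of 36 spindle checkpoint and kinetochore genes 6 were called lower (median −0.35), among them CENPW at −1.40, CENPI at −1.01 and NSL1 at −0.81, parts of the kinetochore. CENPW held in every setting, while CENPI and NSL1 were called in 14 and 10 of the 24. DNA replication had 3 of 49 called (6.1%, median −0.30). These were ORC6 of the origin recognition complex at −1.07, the primase subunit PRIM1 at −0.89 and the licensing factor CDT1 at −0.57, called in 23, 19 and 16 settings. Of 20 cyclins and cyclin-dependent kinases, CDK6, which drives G1 in blood cells, was the 1 called, at −0.95, −1.31, −1.05 and −1.33 in the RUX libraries. CDK6 was called in 12 of the 24 settings, and 1 of its 4 guides lay above 0. The call was lost in edgeR (adjusted p = 0.45) and DESeq2 (adjusted p = 0.56). E2F1, the transcription factor of the G1/S switch, was the highest of that list at 0.13.

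Of the 232 genes in the metabolic lists 13 were called lower, against 67 of the 326 in the lists above and 1.61% of all genes. The share per list ran from 0% to 12.5%, and every list median lay below that of all genes. Of 76 mitochondrial ribosome genes 55 lay below day 0 in all 4 RUX libraries and 4 were called lower (median −0.25), MRPL41 at −1.21, MRPL32 at −0.77, MRPL17 at −0.60 and MRPS16 at −0.59. None of the 50 complex I genes was called (median −0.14), and they ran from −0.54 at NDUFB1 to 0.28 at NDUFS1. For heme synthesis and iron, which erythroid cells use heavily, 3 of 36 genes were called (median −0.19). All of them belong to iron-sulfur cluster assembly, namely the cysteine desulfurase NFS1 at −0.99, the ferredoxin FDX1L at −0.78 and the co-chaperone HSCB at −0.63. Nucleotide and folate synthesis had 3 of 29 called (median −0.28), among them the purine synthesis enzyme GART at −0.68 and MTHFD1 of folate metabolism at −0.61. The vacuolar ATPase, which acidifies lysosomes, had 7 of 16 below −0.5 and 2 called (median −0.41), ATP6V0C at −1.05 and ATP6V0B at −1.04. Cholesterol synthesis had 1 of 25 called, SCAP, the escort of the sterol sensor, at −0.67, and its highest member was MSMO1 at 0.26 (median −0.15). Among the called metabolic genes, only ATP6V0C held in every setting. MRPL41 was called in 23 of the 24 settings, ATP6V0B in 19, NFS1 in 17, MTHFD1 in 15 and HSCB in 14. FDX1L and MRPL17 were called in 13, MRPL32 and MRPS16 in 11, SCAP in 10 and GART in 9.

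**Figure D3:**
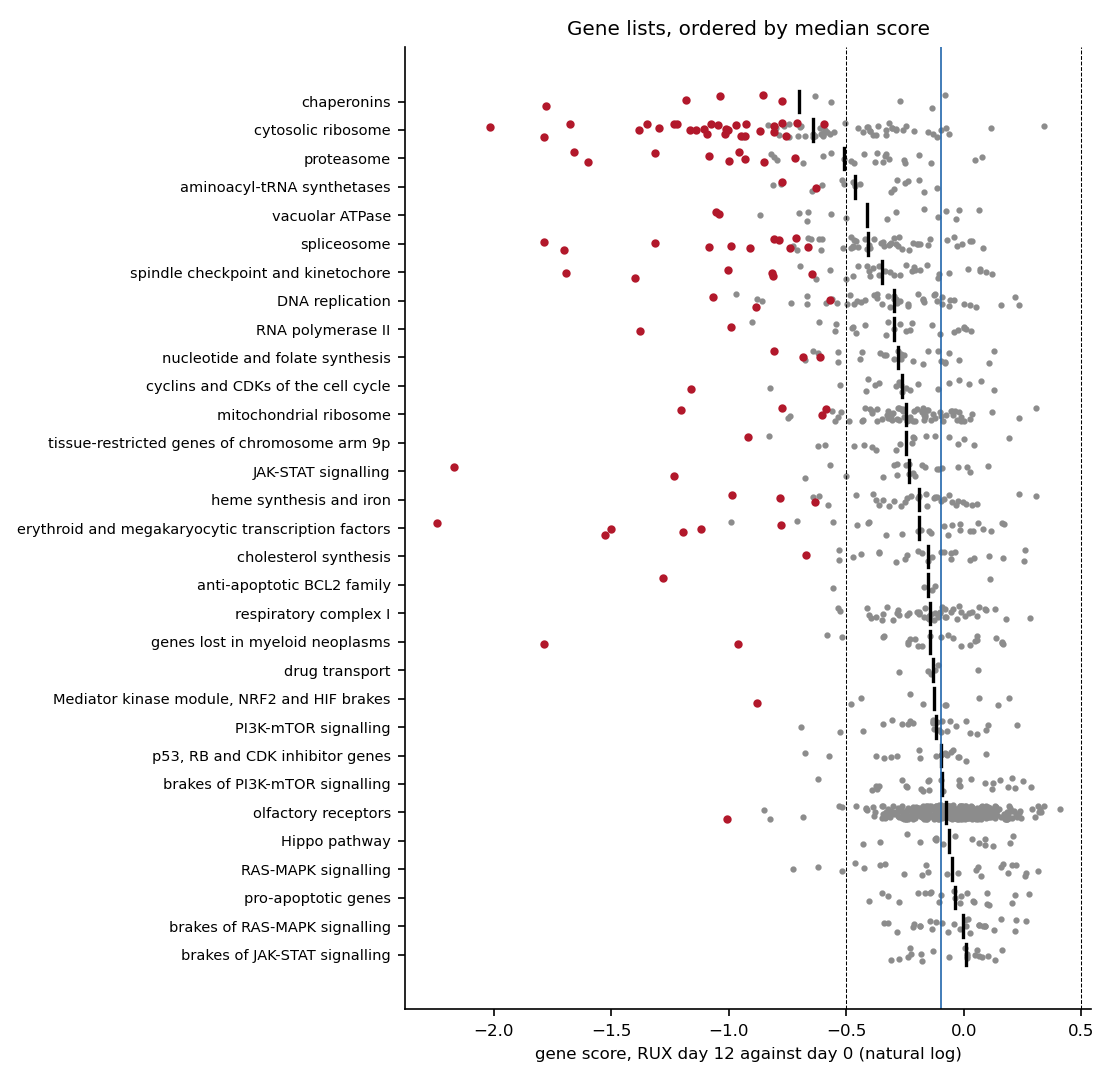
Mean RUX score (natural log, horizontal axis) of each gene in 31 lists, ordered by the list median (black bar). Red points are genes called lower, the blue line is the median of all genes (−0.10), and dashed lines mark −0.5 and 0.5. No gene of any list lies above 0.5.

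Among 30 transcription factors known from erythroid and megakaryocytic cells, 6 were called lower (20%, against 1.61% of all genes). Their median was −0.19. Besides RUNX1 these were MYC, GATA1, GFI1B, ZFPM1 and MYB. MYC, which drives cell growth, stood at −0.95, −1.86, −1.62 and −1.69 in the RUX libraries (adjusted p = 0.0019, limma). GATA1, the master regulator of red cell genes, stood at −0.86, −1.70, −1.51 and −1.94 (adjusted p = 0.0013, limma). For both genes RUX replicate 1 lay above the other 3 RUX libraries and above all 4 DMSO libraries, while the 3 others overlapped with DMSO. GFI1B, a repressor that erythroid and megakaryocytic maturation needs, had −1.20 ± 0.27, and MYB, a factor of immature blood cells, −0.78 ± 0.16 (SD, n = 4 each). GFI1B and MYB were called in 12 and 14 of the 24 settings.

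The target of the drug itself was depleted. JAK2 (chromosome 9, 4984390 to 5129948) stood at −0.92, −1.39, −1.27 and −1.36 under RUX, a mean of −1.23 ± 0.22 (SD, n = 4; adjusted p = 2.3e-04, limma), and held in every setting. This left 29.1% of its day 0 guide level. Under DMSO its scores lay between −1.22 and −1.02. The difference between RUX and DMSO was −0.13 with a standard error of 0.13 (adjusted p = 0.81, limma). Its 3 guides used had mean scores of −1.93, −1.05 and −0.72. JAK2 lies on chromosome arm 9p among neighbours that were low as well, and with the median of 20 neighbouring genes subtracted its score was −0.90.

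Of 23 genes of JAK-STAT signalling 2 were called lower, JAK2 among them (8.7%, against 1.61% of all genes). The list had a median of −0.23. None of the 24 RAS-MAPK genes was called (median −0.05), and the lowest was the adaptor GRB2 at −0.73. None of the 26 genes of PI3K-mTOR signalling was called either (median −0.12), from RRAGA, a lysosomal GTPase that activates mTORC1, at −0.69 to LAMTOR5 at 0.23. All 4 RUX libraries of GRB2 and RRAGA lay below −0.5. Among 6 anti-apoptotic BCL2 family genes, BCL2L1, which encodes BCL-XL, was called at −1.67, −0.97, −1.23 and −1.26 in the RUX libraries (adjusted p = 0.013, limma), while BCL2 stood at 0.11 ± 0.07 (SD, n = 4). The BCL2L1 call rested on 3 guides at −1.98, −1.20 and −0.66 and on low day 0 reads, 112.7 per guide on average, and was lost in edgeR and DESeq2. KDM4C, the histone demethylase at the centre of the study, scored −0.50, −0.59, −0.76 and −0.39, a mean of −0.56 ± 0.15 (SD, n = 4). The score was −0.28 with the median of 20 neighbouring genes subtracted and −0.42 in edgeR and DESeq2, all above −0.5. It was not called (adjusted p = 0.35, limma), and 2 of its 4 guides lay below −0.5, at −0.96 and −0.91.

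Genes known to restrain growth signals or to execute cell death were examined to ask whether their loss was followed by a rise under RUX. None of 166 such genes, in 8 lists, lay above 0.5 or above the highest control pseudo-gene, and none was called higher. Their median score was −0.07, and 26 of them (15.7%) lay above day 0 in all 4 RUX libraries, against 9.19% of all genes and 17.0% of control pseudo-genes. The highest were TBC1D7, a subunit of the TSC complex that limits mTORC1, at 0.29, the apoptosis trigger BCL2L11 at 0.28 and CIC, a repressor of MAPK target genes, at 0.26. CIC was above day 0 with all 4 guides, at 0.28, 0.20, 0.27 and 0.30 in the RUX libraries (adjusted p = 0.49, limma). For brakes of JAK-STAT signalling the median of the mean scores was 0.01, with CBL, a ubiquitin ligase of activated receptors, highest at 0.16 and SOCS3 lowest at −0.31, although the list medians within single libraries ran from −0.05 to −0.04.

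Some of these genes were low instead, with 3 of the 166 called lower and 8 below −0.5. Over all genes the shares were similar, with 1.61% called lower and 4.66% below −0.5. NF1, which switches RAS off, stood at −0.35, −0.35, −0.32 and −0.33, and STK11, the kinase upstream of AMPK, at −0.69, −0.68, −0.73 and −0.38. Neither was called. The F-box protein FBXW7 had −0.68 ± 0.24, the cell cycle inhibitor CDKN2C 0.10 ± 0.05 (SD, n = 4 each), and CYCS, the cytochrome c released in apoptosis, −0.40 ± 0.05. In the Hippo pathway scores ran from −0.43 at AMOTL2 to 0.21 at MOB1B. Called lower among the brakes were PRPF8, listed for its loss in myeloid neoplasms, CSNK1A1, a kinase of the same list that marks beta-catenin for destruction, at −0.96, and MED12, of the Mediator kinase module, at −0.88. CSNK1A1 and MED12 were called in 14 and 13 of the 24 settings, and neither when scaled over all guides. EGLN2, an oxygen sensor of the HIF pathway, was the highest of the list with MED12, at 0.19. Scaled over all guides and not over control guides, the median of the 166 genes was 0.01 against −0.01 over all genes, so its sign followed the scaling.

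Among 6 drug transport genes none was called (median −0.13), and the efflux pump ABCB1 was the highest at 0.06. Olfactory receptors, known for their role in the nose, serve as a background. Of 374, 1 was called lower, OR4F29 at −1.01 (0.27%, against 1.61% of all genes), and the median was −0.07. OR4F29 belongs to a family of near-identical subtelomeric copies, so its score is uncertain as that of 1 gene. The highest receptor was OR1G1 at 0.41.

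At the upper end no gene was called, and most of the highest scores came with few day 0 reads. The 15 highest genes with at least 3 guides, all guides above 0 and all 4 RUX libraries above 0 had scores from 0.47 to 0.67 and adjusted p between 0.063 and 0.36 in limma. They lay on 10 chromosomes. Their median of 130 day 0 reads per guide compares with 257 over all genes and 316 over the genes called lower. Of the 9 genes above 0.5, 8 were among the 3841 genes with the fewest day 0 reads, and MYO1F, the highest, had 190.25 per guide. The part of low reads in these scores was not tested.

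The highest score of all rested on 1 guide. MYO1F, a myosin of blood cells, stood at 0.90, 0.38, 0.61 and 0.79 in the RUX libraries, a mean of 0.67 ± 0.23 (SD, n = 4; adjusted p = 0.063, limma). One of its 4 guides rose from a scaled level of 172 at day 0 to 3519, 529, 1529 and 2591 in the 4 RUX libraries, while the other 3 had mean scores of 0.01, 0.21 and 0.23. The same guide stood at 79.1, 448, 1520 and 292 in the 4 DMSO libraries. It was the only guide of 75432 with a mean score above 2. MYO1F was called higher in 9 of the 24 settings, among them edgeR (adjusted p = 0.024), the fit with the replicate block (adjusted p = 0.025, limma) and RUX and day 0 libraries alone (adjusted p = 0.0049, limma). It was not called in the others, with an adjusted p of 0.41 in DESeq2 and a score of 0.15 without its farthest guide (adjusted p = 0.85, limma).

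Across the screen, a total of 119 guides had a mean score above 1, and 0 genes had 2 or more of them. All 119 lay above day 0 in each of the 4 RUX libraries, which choosing guides by this mean makes likely. The guides ranked directly after that of MYO1F had 37, 35 and 39 reads at day 0, close to the lowest level kept, 30. NHLH1, a neuronal transcription factor, had a gene score of 0.47 and 1 guide that rose from 37.3 at day 0 to between 139 and 249. NHLH1 was not called in the main setting (adjusted p = 0.096, limma) or in edgeR or DESeq2. Some alternatives called it higher, among them scaling to the library total (adjusted p = 0.043, limma).

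**Figure D4:**
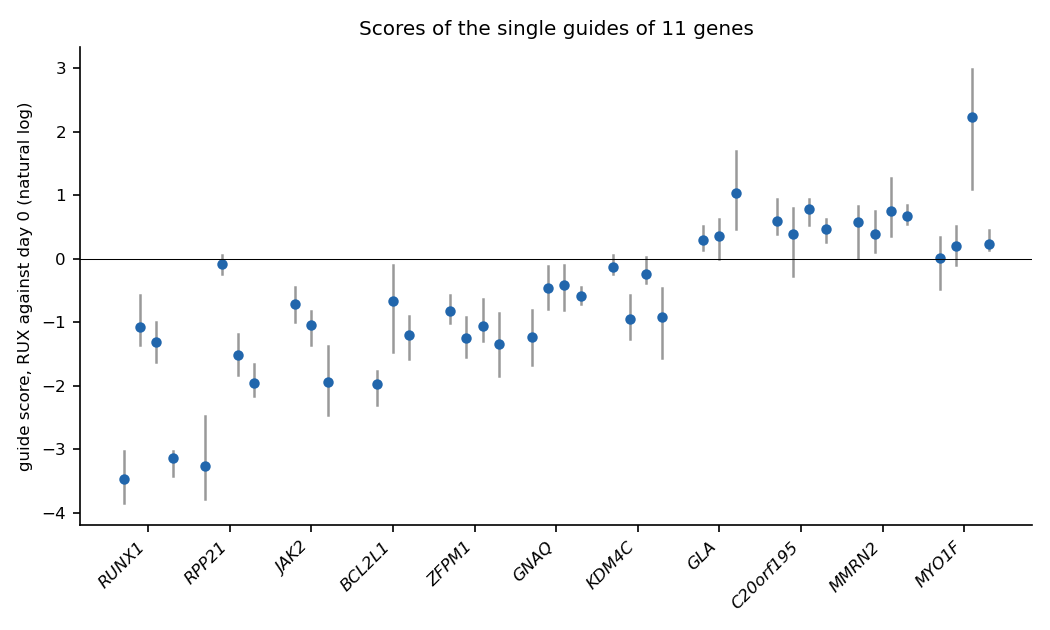
Mean score of each single guide over the 4 RUX libraries (natural log, vertical axis; point) with the range over the 4 libraries (grey line) for 11 genes. All 4 RUNX1 guides lie below −1, while the MYO1F mean is carried by 1 guide at 2.23 with the others between 0.01 and 0.23.

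Other genes near the top had several guides above 0, and none of them passed the test in the main setting. MMRN2, a protein of the vascular matrix, stood at 0.67, 0.50, 0.62 and 0.59 (mean 0.60 ± 0.07, SD, n = 4; adjusted p = 0.20, limma), and its 4 guides had mean scores of 0.75, 0.67, 0.57 and 0.39 from 80.8 day 0 reads per guide. C20orf195 stood at 0.75, 0.55, 0.48 and 0.45, with 4 guides between 0.39 and 0.77. Its adjusted p was 0.10 in limma, and it was called higher in DESeq2 (adjusted p = 0.042). GLA, the lysosomal alpha-galactosidase, stood at 0.71, 0.39, 0.34 and 0.82, with 3 guides at 1.04, 0.36 and 0.30. DMSO libraries of all these genes were above day 0 as well, with means of 0.45, 0.39 and 0.56. PF4V1, a platelet chemokine, had 0.54 ± 0.11, the actin-binding TAGLN3 0.53 ± 0.12, the linker histone gene HIST1H1A 0.51 ± 0.13 and the zinc finger gene ZNF449 0.50 ± 0.14 (SD, n = 4 each). PF4V1 was called higher with a day 0 level of at least 100 (adjusted p = 0.049, limma). PRLH, PLEKHA2, ZFR2, MFSD3, ZC4H2, AP2A2 and EYS had mean scores between 0.47 and 0.50. The ninth gene above 0.5 was FAM20A at 0.50, with 3 of 4 guides above 0. Of the 15 genes, 11 were above day 0 in all 4 DMSO libraries too.

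The 14 genes with every guide above day 0 in every RUX library had moderate scores, from 0.22 at MID1IP1 to 0.60 at MMRN2. Among the others were GLA, HMGB3, IFT81, IKBIP, KLHL10, NECAP2, NEURL3, NFRKB, RECK, TBC1D28 and ZC4H2, and the smallest adjusted p was 0.19 in limma. HMGB3, a chromatin protein, stood between 0.28 and 0.37 in the RUX libraries. Of the 14, 5 lay on chromosome X, which holds 4.18% of scored genes, and 9 were above day 0 in all 4 DMSO libraries as well. KLHL10 was not, with a mean of 0.41 under RUX and −0.05 under DMSO (adjusted p of the difference = 0.14, limma).

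Position in the genome moved with the scores of whole regions. In 282 bins of 10 Mb with at least 20 scored genes, the median score ran from −0.30 to 0.06, and 6 bins were above 0. The lowest was chromosome 14 from 40 to 50 Mb (21 genes, −0.30 under RUX and −0.23 under DMSO), where RPS29 stood at −0.58, C14orf28 at −0.54 and RPL36AL at −0.50, none of them called. This order holds for mean scores only. Within single RUX libraries its median ran from −0.28 to −0.19, while that of chromosome 9 from 0 to 10 Mb ran from −0.30 to −0.25 and that of the chromosome 1 bin described next from −0.34 to −0.25. The chromosome 14 median was −0.17 without the farthest guide and −0.20 in DESeq2. Also among the 4 lowest were chromosome 9 from 0 to 10 Mb (41 genes, −0.29 and −0.26) and chromosome 9 from 10 to 20 Mb (24 genes, −0.26 and −0.31). The first of these holds JAK2, KDM4C and the called genes KIAA0020, a ribosome biogenesis factor, at −1.11 and PPAPDC2, a lipid phosphatase, at −0.76. In the second, FREM1, an extracellular matrix gene, was called at −0.92, in 7 of the 24 settings. With neighbouring genes subtracted it stood at −0.62 (adjusted p = 0.45, limma), and the calls of KIAA0020 and PPAPDC2 were lost as well. Of 20 tissue-restricted genes of 9p, 4 lay below −0.5 and 1 was called, against 4.66% and 1.61% of all genes. Their median was −0.25, with SLC1A1 highest at 0.19. Copy number in HEL cells was not analysed here, and its part in these medians was not tested.

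The third lowest bin, chromosome 1 from 140 to 150 Mb (57 genes, −0.26 under RUX and −0.25 under DMSO), had 16 genes below −0.5 and 7 called lower. These 7 were NBPF20 at −1.32, NBPF9 and NBPF10 at −0.91 and −0.90, and the histone genes HIST2H2AA4, HIST2H3A, HIST2H4B and HIST2H2AA3 between −1.19 and −0.80. All belong to families with near-identical copies, so 1 guide can match several places and the scores are uncertain as those of single genes. DUX4, a gene in a repeat array on chromosome 4, is another such case, at −1.38 ± 0.15 (SD, n = 4). The highest bin was chromosome 10 from 130 to 140 Mb (30 genes, 0.06 under RUX and 0.09 under DMSO), led by MTG1 at 0.29, TCERG1L at 0.21 and ADAM8 at 0.21. Among chromosomes, medians ran from −0.14 for chromosome 17 to −0.03 for chromosome 18.

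**Figure D5:**
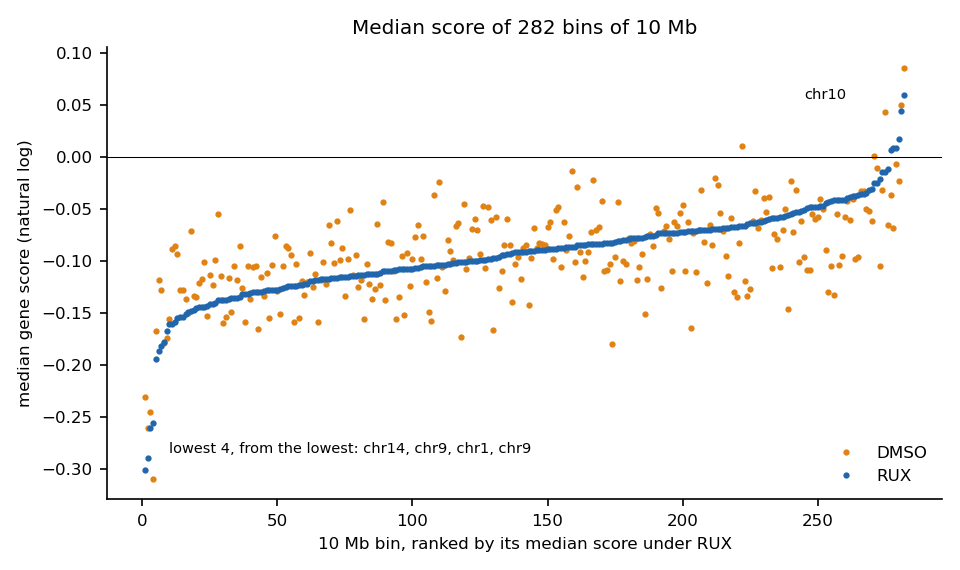
Median gene score (natural log, vertical axis) of 282 bins of 10 Mb, ranked by their median under RUX (horizontal axis), under RUX (blue) and DMSO (orange). The 4 lowest RUX bins, on chromosomes 14, 9, 1 and 9, lie between −0.30 and −0.26, apart from the rest.

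The DMSO scores share the day 0 library with the RUX scores, so the values are set side by side only. Under DMSO limma called 226 genes lower (1.18% of genes). A direct comparison of the 4 RUX and 4 DMSO libraries called 8 genes lower under RUX (0.0419% of genes) and 0 higher (0% of genes), while 1082 and 655 genes passed an unadjusted p of 0.05. DESeq2 called 34 lower and 1 higher, and edgeR 4 and 1. The 8 genes fell to 0 without RUX replicate 3 or with the variance trend over the mean score, and rose to 28 without DMSO replicate 2.

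Of these 8 genes, 4 were also called lower than day 0, namely GNAQ, ZFPM1, MAZ and SLC2A1. GNAQ, the alpha subunit of a G protein that activates phospholipase C, stood at −0.50, −0.57, −0.84 and −0.78 under RUX and at −0.12, −0.21, −0.04 and −0.19 under DMSO, so the groups did not overlap. The difference was −0.53 with a standard error of 0.09 (adjusted p = 0.0021, limma). It was called in 17 of 23 alternatives. Its 4 guides had mean scores of −1.24, −0.58, −0.46 and −0.41 under RUX.

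ZFPM1, the cofactor of GATA1 also known as FOG1, stood at −1.24, −0.89, −1.38 and −0.96 under RUX and between −0.59 and −0.47 under DMSO, again without overlap. The difference of −0.59 (standard error 0.13; adjusted p = 0.046, limma) was called in 8 of 23 alternatives, and no longer without DMSO replicate 1 or 4 or RUX replicate 1, 3 or 4. Against day 0 it held in every setting. Its 4 guides lay at −1.33, −1.24, −1.07 and −0.83 under RUX, and at −0.17, −0.35, −1.29 and −0.29 under DMSO. The zinc finger factor MAZ stood at −0.72 under RUX and −0.26 under DMSO, and the glucose transporter SLC2A1 at −0.54 and −0.09. Their differences were called in 12 and 5 of 23 alternatives. Against day 0, MAZ was called in 21 of the 24 settings and SLC2A1 in 9.

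The other 4 genes were not called against day 0. GADD45A, a stress sensor of the p53 response, stood at −0.60 under RUX and 0.01 under DMSO, and GNB2, a G protein beta subunit, at −0.43 and −0.01. NCLN and LAMA2 stood at −0.39 and −0.24 under RUX and at 0.14 and 0.17 under DMSO. Further called genes with large differences did not pass the comparison with DMSO, such as the nucleolar NOM1 at −1.49 against −0.96 and KANSL2, of a histone acetyltransferase complex, at −0.95 against −0.44. In the opposite direction, TP53RK, WDR77, RPS20, TSC22D2 and DNAJC9 were less depleted under RUX by 0.25 to 0.28, and none of these differences passed.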

How the data were processed

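Genomic DNA of HEL-Cas9 cells carrying the Brunello library was sequenced at day 0 (1 library) and at day 12 under DMSO or 200 nM RUX (4 libraries each). Guide reads were counted by the authors in MAGeCK, who deposited scaled read counts per guide, a signal on 1 common scale in which 100% of values came out as whole reads in every library (tolerance 0.001 reads). Columns left unused numbered 0. The authors' beta scores, with their copy number correction, were not used here.

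Each library was rescaled by the median ratio over those of the 1000 non-targeting guides that had a day 0 level of at least 30. Guides with a day 0 level of at least 30 were kept, 5 was added, and a gene score was the mean natural log difference over at least 2 guides. Scores of all 9 libraries were fitted with limma 3.58.1 (R 4.3.3; lmFit and eBayes with a mean-variance trend), with 1 mean per group and Benjamini-Hochberg adjustment over all scored genes at 0.05. The fit was tested on simulated data. All p-values are two-sided. Day 0 has no replicate of its own and took its spread from the other groups, and limits from a count of 0 (3 of the total) cover counting error only. PCR reads are not independent molecules. As count tests, edgeR 4.0.16 and DESeq2 1.42.0 were run on recovered reads summed per gene. Tables were made in Python 3.11.15.

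Positions on GRCh38 came from GENCODE through the current symbol (17949) or older symbol (980), and 185 were not placed. The positions of guides within genes were not analysed here. The members and gene lists were chosen with earlier results of these data known. Symbols on the lists without a match in the table numbered 4. Named genes were the 15 lowest called genes with at least 3 guides below −0.5, the 15 highest with all guides and libraries above 0, up to 4 called members of each list (or its highest and lowest member), the leading genes of the lowest and highest bin, JAK2, KDM4C, and the called genes with the largest RUX minus DMSO differences. A few genes named by that rule are not reported here, though they remain in all counts, lists and plots. MAZ, SLC2A1, GADD45A, GNB2, NCLN, LAMA2, MYB, NHLH1, FAM20A, DUX4, the called genes of the chromosome 9 and chromosome 1 bins, and the genes with every guide above day 0 were named after their values were seen. Alternatives covered scaling, pseudocount, day 0 filter, the summary over guides, neighbouring genes, the variance model, the test, the block on replicate numbers and each library left out.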

Additional observations from a re-analysis of the deposited data

Results flagged for a closer look

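In groups of 4 libraries, 1 library stood far from the other 3 (Dixon's test) in 19 of 323 groups tested. Chance gives about 1 in 20 groups, or 16.15 here. Under RUX the distant scores were −0.80 for GFI1B, −0.0022 for LAMTOR5, −0.38 for STK11, 0.70 for HIST1H1A, 0.71 for ZNF449, 0.32 for PRLH, −0.64 for KANSL2 and 0.50 for RECK. Under DMSO they were −0.94 for PSMB5, −0.41 for POLR2I, −0.64 for NDUFB1, −0.47 for CBL, 0.14 for OR1G1, 0.91 for GLA, 0.59 for EYS, −0.97 for TSC22D2 and −1.36 for DUX4. Among list medians within single RUX libraries, 1 library stood at −0.18 for the mitochondrial ribosome, where the others lay between −0.25 and −0.24, and 1 at 0.0499 for RAS-MAPK signalling, where the others lay at −0.06.

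Effects against day 0 differed between RUX and DMSO by limma's test of the difference for 8 genes. The differences were −0.61 for GADD45A, −0.53 for GNAQ, −0.42 for GNB2, −0.41 for LAMA2, −0.46 for MAZ, −0.53 for NCLN, −0.44 for SLC2A1 and −0.59 for ZFPM1.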

How the results depend on the processing

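Of the 142 genes followed in the alternatives, none of those called in the main setting changed sign. Of 3401 recomputed scores, 2730 counted as the same, 471 lost the call, 30 gained one and 170 moved by more than 1 SD. A called gene counted as the same if it stayed called with its sign, whatever the size of the move. A gene not called counted as the same if its score moved by less than 1 SD of its RUX libraries, and its sign was not checked. The 170 moved scores are therefore all of genes not called. Among 792 recomputed list and bin medians, 227 moved by more than 1 SD. Day 0 was read once, and 8 of 9 genes above 0.5 were among those with the fewest day 0 reads.

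Genes called lower, 307 in the main setting, numbered 180 in edgeR, 115 with neighbouring genes subtracted and 78 with the median over guides. They numbered 154 scaled to the library total, 147 scaled over all guides and 151 with values as deposited. With the variance trend over the mean score they numbered 102, and without the farthest guide 115. These are totals per setting. Of the 307 genes themselves, 159 were called in edgeR and 96 without the farthest guide. Genes called higher numbered 3 in DESeq2, 3 with RUX and day 0 libraries only, 1 with a day 0 level of at least 100, 1 in edgeR, 2 with neighbours subtracted, 1 with a pseudocount of 20, 3 by library total, 2 over all guides, 2 as deposited and 2 without the farthest guide. Genes below −0.5 numbered 545 in DESeq2 and in edgeR and 516 with neighbours subtracted. Genes above 0.5 numbered 19 in DESeq2 and in edgeR, 55 with neighbours subtracted, 15 with no day 0 filter, 16 and 3 with pseudocounts of 1 and 20, 35 by library total, 42 over all guides, 41 as deposited and 61 without the farthest guide. Genes lower under RUX than under DMSO numbered 34 in DESeq2, 2 with a day 0 level of at least 100, 4 in edgeR, 2 with neighbours subtracted, 4 with the median over guides, 5 with no day 0 filter, 0 with no mean-variance trend, 5 with a pseudocount of 1, 2 by library total, 3 over all guides, 3 as deposited and 0 with the variance trend over the mean score. Genes higher under RUX than under DMSO numbered 1 in DESeq2, in edgeR, with neighbours subtracted, with a pseudocount of 20 and by library total. The cause of these shifts was not tested.

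Leaving out 1 library at a time gave 236 to 394 genes lower, 0 to 3 higher, 891 to 923 below −0.5, 9 to 15 above 0.5, and, against DMSO, 0 to 28 lower and 0 to 3 higher. The comparison with DMSO called 28 genes lower without DMSO replicate 2, 5 without DMSO replicate 3, 1 without DMSO replicate 1 or 4, 4 without RUX replicate 1, 0 without RUX replicate 3 and 1 without RUX replicate 4.

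RUX and DMSO libraries share replicate numbers, but deviations of same-numbered libraries correlated at −0.007, −0.127, −0.111 and 0.033, so the numbers were not taken to pair them. With the replicate block, 301 genes were lower and 1 higher than day 0, and the comparison with DMSO called 7 genes lower and 1 higher. RUX and day 0 share no pairing.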
